A study of Mus musculus with 31 samples.

Results

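Livers and skeletal muscles of wild-type (WT) mice were compared by RNA sequencing to describe the gene programs that set these organs apart: genes restricted to either tissue, tissue forms of metabolic and mitochondrial enzymes, and nuclear receptors with their coregulators. The 8 libraries, 4 of liver and 4 of muscle, were chosen by their labels as the WT samples of the experiment on ERRα3SA mice, out of 31 samples in the series, and no measured value entered that choice. Both groups came from untreated WT mice of strain C57BL/6N on a standard normal diet. The mice were age-matched male littermates 2 to 3 months old, and the muscle was gastrocnemius together with soleus. The study asks how ERRα, a nuclear receptor, responds to insulin, and its ERRα3SA mice are gene-edited C57BL/6N animals in which serines of ERRα cannot be phosphorylated. ERRα3SA livers and muscles, 4 of each, and 4 livers of fasted WT C57BL/6N mice given saline serve below only as side-by-side values. RNA of the tissues was extracted with different kits, so kit and tissue cannot be told apart. Libraries of liver held 33412022, 26176391, 24687935 and 23426588 counts and libraries of muscle 25831378, 23561675, 25058838 and 24923581.

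The liver makes most plasma proteins, detoxifies, turns nitrogen into urea and exports glucose and ketone bodies to other organs. Skeletal muscle is built of contractile fibres that take up glucose and fat and burn them in mitochondria, and it can neither release glucose nor make ketone bodies in quantity. Many enzymes therefore exist as separate genes for the liver and the muscle form, and nuclear receptors, transcription factors that bind lipids, hormones or no known ligand, tune fuel use in both organs together with coactivators such as PGC-1α and corepressors such as NCoR.

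Levels are given in CPM, which are counts scaled to library size with TMM factors, and levels of different genes are compared per kilobase of exon (CPM per kb) except where a list is ordered or summarized by CPM. A log2 fold change is muscle minus liver, so that a positive value is a higher level in muscle. Values after ± are SDs over 4 libraries for levels and standard errors for log2 fold changes. Of 14886 genes tested, 12484 (83.9%) were called, with an adjusted p under 0.05 and a fold of at least 1.2, 6221 (41.8%) of them higher in muscle and 6263 (42.1%) higher in liver. Without adjustment of p the count was 12534 (84.2%). The median fold among called genes was 3.16, and 1783 genes were at least 10-fold higher in muscle and 1701 at least 10-fold higher in liver. A call by itself therefore says little about a gene here, and the size of a difference and the level in each library are given for that reason. Counts in bulk tissue also do not tell fewer cells of a type from less RNA per cell.

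The labels were checked against defining markers of the tissues. All 13 hepatocyte markers were called higher in liver, and their summed level was 105603 to 123479 CPM in livers and 3.99 to 4.87 CPM in muscles. All 14 markers of skeletal muscle fibres were called higher in muscle, where their summed level was 142691 to 158488 CPM. In the livers that sum was 20.4, 0.749, 1.70 and 1.06 CPM, so liver replicate 1 stood apart from the other livers with 627 counts on fibre markers against 19, 40 and 24. The 627 counts are 0.0137% of the level in muscle. Albumin, the main plasma protein, is encoded by *Alb* (ENSMUSG00000029368, chr5:90460897-90476602 of GRCm38) and stood at 78405, 66506, 81597 and 64578 CPM in livers and at 0.827, 1.17, 0.387 and 0.974 CPM in muscles, with a log2 fold change of -16.40 ± 0.35 (adjusted p = 1.23e-14). Skeletal α-actin, the thin filament of the fibre, is encoded by *Acta1* (ENSMUSG00000031972, chr8:123891769-123894751) and stood at 5.39, 0, 0 and 0.0440 CPM in livers and at 27772, 29609, 29193 and 29666 CPM in muscles (log2 fold change 14.19 ± 0.87, adjusted p = 1.49e-09), a size set by liver replicate 1 and larger without it. The tissues did not overlap for either gene.

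The most abundant nuclear genes name the work of each organ. By mean CPM per kb the leading 10 in liver were *Alb* (31072), *Apoa2* (12608), *Mup3* (9857), *Apoe* (8775), *Ttr* (6129), *Serpina3k* (5783), *Apoa1* (4994), *Fabp1* (4762), *Serpina1e* (3838) and *Apoc1* (3630). Apart from *Fabp1*, which carries fatty acids inside the hepatocyte, all of these encode secreted proteins: 4 apolipoproteins of plasma lipoproteins, the hormone carrier transthyretin, protease inhibitors and a urinary pheromone carrier. In muscle they were *Acta1* (18919), *Tnnt3* (9767), *Myh4* (8329), *Pvalb* (7126), *Atp2a1* (5776), *Mylpf* (5095), *Myl1* (4412), *Aldoa* (4005), *Ckm* (3984) and *Tnni2* (3920). These encode the thin and thick filaments and troponins of fast fibres, the calcium buffer parvalbumin, the calcium pump SERCA1, aldolase and creatine kinase. The 10 genes with most counts took 17.2% ± 0.602 of the counts in livers and 23.5% ± 0.528 in muscles.

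**Figure D1:**
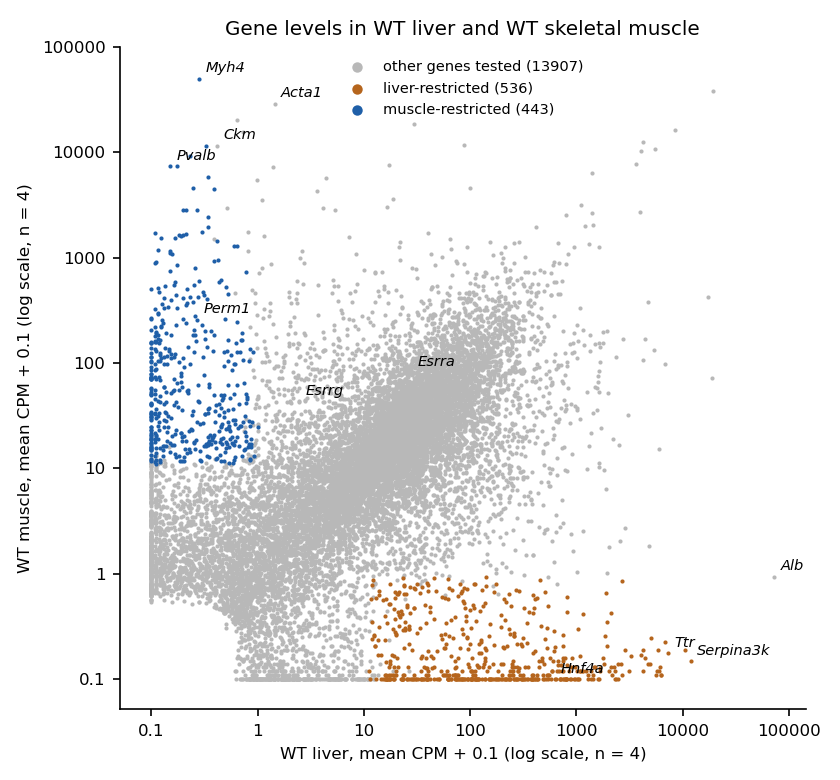
Mean CPM of each gene tested in the 4 livers (horizontal) and the 4 muscles (vertical), both on a log axis with 0.1 added, with liver-restricted genes in orange, muscle-restricted genes in blue and all other genes in grey. The 536 liver-restricted genes lie at the lower right and the 443 muscle-restricted genes at the upper left, while *Esrra* and *Esrrg* lie among the genes present in both tissues.

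Tissue-restricted genes were defined by level alone, as at least 10 CPM in every library of a tissue and under 1 CPM in every library of the other. Liver had 536 such genes, 503 of them protein-coding, and muscle had 443, of which 412 were protein-coding. The liver genes had a median level of 112 CPM, 290 had a mean of at least 100 CPM and 64 of at least 1000 CPM. The muscle genes had a median of 43.2 CPM, with 151 at or above 100 CPM and 28 at or above 1000 CPM. Together the liver-restricted genes took 25.9, 26.8, 26.5 and 27.5% of the counts of the livers and 70.0 to 78.0 CPM of the muscles. The muscle-restricted genes took 18.4, 18.2, 19.2 and 19.2% of the counts of the muscles and 72.5 to 94.5 CPM of the livers, both before scaling. A large part of the counts of each tissue thus came from genes that the other tissue hardly contained. Of the markers above, 11 of 13 for hepatocytes and 7 of 14 for fibres meet this definition. Those outside it include *Alb*, with 1.17 CPM in muscle replicate 2, and *Acta1* and *Ckm*, with 5.39 and 1.27 CPM in liver replicate 1. Without liver replicate 1 the muscle set held 462 genes.

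The leading liver-restricted genes by mean CPM were *Serpina3k* (11896), *Mup3* (10528), *Ttr* (7270), *Apoa2* (6771), *Serpina1e* (6206), *Apoa1* (6173), *Gc* (6168), *Fga* (5946), *Ahsg* (5801) and *Cps1* (5718). *Gc* encodes the vitamin D carrier of plasma, *Fga* a fibrinogen chain, *Ahsg* fetuin-A and *Cps1* the entry enzyme of the urea cycle, the only enzyme of metabolism among the 10. The leading muscle-restricted genes were *Myh4* (50106), *Ttn* (11406), *Myl1* (9151), *Actn3* (7475), *Pvalb* (7419), *Tnni2* (5868), *Mybpc2* (4622), *Ryr1* (4484), *Cmya5* (2866) and *Casq1* (2862). They encode the fast myosin heavy chain IIb, titin, a myosin light chain, α-actinin of fast fibres, parvalbumin, a fast troponin, a myosin-binding protein, the calcium release channel, a Z-disc protein and the calcium store protein calsequestrin. *Myh4* alone stood at 47249, 45192, 52237 and 55746 CPM in muscles and at 0.487, 0.158, 0 and 0.0880 CPM in livers. Myosin heavy chains of the other fast fibres, which are not restricted by the definition above because of liver replicate 1, were lower per length: *Myh1* at 551 ± 45.3 and *Myh2* at 417 ± 51.4 CPM per kb beside 8329 ± 795 for *Myh4*. The muscle libraries are thus dominated by the type IIb fibre gene. Reads of close paralogs, such as those of the Mup and Serpina families, may have been assigned between them or left uncounted when the authors counted reads, so levels of single members are less certain than those of the families.

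Some gene families had several members in the restricted sets. By the root of the symbol, with roots chosen after the values were seen, the liver set contained 32 genes of the cytochrome P450 root (Cyp, 2 of them pseudogenes), 29 solute carriers (Slc), 13 genes of the Serpina root (1 pseudogene, and not all of them protease inhibitors), 12 glucuronosyltransferases (Ugt), 11 urinary proteins (Mup), 10 carboxylesterases (Ces), 6 aldo-keto reductases (Akr) and 6 hydroxysteroid dehydrogenases (Hsd). Other than 7 solute carriers, none of these roots occurred in the muscle set. The muscle set held 9 Asb and 7 Klhl genes, both of which encode adaptors of ubiquitin ligases and were absent from the liver set, and 6 Tmem genes for membrane proteins, of which the liver set held 3. These roots cover a minor part of either set, and no share over all genes was computed for them.

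The same definition was applied to mice that share no library with the WT groups. In the ERRα3SA libraries 472 (88.1%) of the liver genes and 343 (77.4%) of the muscle genes were again restricted, and 480 (89.6%) and 377 (85.1%) when ERRα3SA muscle column 1, described at the end, was left out. Of 522 liver-restricted genes present in the table of the saline experiment, 450 reached 10 CPM in all 4 livers of fasted WT mice and 4 stayed under 1 CPM in all of them. Of 431 muscle-restricted genes in that table, 0 reached 10 CPM in all 4 and 388 stayed under 1 CPM. Fasting, saline and another experiment separate those livers from the present ones, and which of these bears on the liver genes that fell short was not tested.

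Tissue transcription factors lay far apart. All 11 factors listed for liver were called higher there, beside 42.1% of all genes tested, and 6 of them had 0 counts in every muscle library. For such genes a fold is a lower bound against a floor of 3 counts per library: *Onecut2* was at least 769.9-fold higher in liver, *Foxa2* at least 444-fold, *Foxa3* at least 421-fold, *Onecut1* at least 341-fold and *Foxa1* at least 257-fold. These are onecut and forkhead factors that bind the enhancers of hepatocyte genes, and 52.8% of the exons of *Onecut1* are also covered by another gene. Such bounds, and the counting intervals given further on, cover counting error only. *Cebpa*, a leucine zipper factor shared with fat cells, stood at 570.1, 560.0, 554 and 541 CPM in livers and still at 13.2, 11.7, 8.16 and 6.59 CPM in muscles, and *Cebpb*, its stress-inducible relative, differed least, with 40.7, 84.7, 41.3 and 69.0 against 33.1, 31.6, 18.5 and 21.8 CPM (log2 fold change -1.17 ± 0.24). With genes at 0 set to their bound the median log2 fold change of the list was -8.41, beside a median near 0 over all genes tested.

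All 12 factors listed for muscle were called higher in muscle, beside 41.8% of all genes tested, 4 of them with 0 counts in every liver. *Myf6*, the myogenic factor of mature fibres, stood at 67.2, 76.5, 71.4 and 72.1 CPM and was at least 604-fold higher in muscle. The other myogenic factors were lower: *Myod1* at 24.3, 28.4, 19.1 and 20.8 CPM (at least 195-fold), *Myog* at 2.88, 3.59, 1.86 and 3.27 CPM (at least 24.4-fold) and *Myf5* at 2.05, 1.77, 2.01 and 2.14 CPM (at least 16.8-fold). Per length the order was the same, with 56.8 ± 3.00 CPM per kb for *Myf6*, 12.4 ± 2.22 for *Myod1*, 1.94 ± 0.504 for *Myog* and 0.958 ± 0.0754 for *Myf5*. *Tbx15*, a regulator tied to the fast fibre program, and *Vgll2* reached 257 and 51.2 CPM on average in muscle with 3 and 1 counts over all livers. The MEF2 factors, which act with MyoD on contractile genes, split by paralog: *Mef2c* stood at 2.66 CPM in liver and 891 in muscle (log2 fold change 8.37 ± 0.14), whereas *Mef2a* and *Mef2d* were present in both tissues and differed by a log2 fold change of 2.66 ± 0.07 and 2.58 ± 0.06. *Tead1* had a log2 fold change of 5.62 ± 0.11. With bounds the median of the list was 7.99.

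Promoters of the restricted genes were searched for short motifs of these factors. A promoter sequence, the 250 bases before the start site from the RefSeq table on GRCm38.p6, was matched for 402 of the 536 liver-restricted genes (493 promoters) and 320 of the 443 muscle-restricted genes (406 promoters), and 32851 promoters of all genes served for comparison. Both strands were read. The HNF4 element CAAAGTCCA occurred in 10 of the 493 liver-restricted (2.03%), 1 of the 406 muscle-restricted (0.246%) and 0.384% of all promoters. For the C/EBP element TTGCNNAAT the shares were 3.65, 1.72 and 2.11%. The MEF2 box occurred in 1 of the 493 liver-restricted (0.203%), 21 of the 406 muscle-restricted (5.17%) and 0.508% of all promoters. The CArG box bound by serum response factor occurred in 1.01, 2.96 and 1.47%, and the MyoD E-box CAGCTG in 54 of the 493, 87 of the 406 and 4271 of the 32851. Shares that rest on 1 promoter are uncertain. Promoters rather than genes are counted, so a gene with several start sites can count more than once. The extended element of ERR receptors, TCAAGGTCA, occurred in 2 of the 493, 1 of the 406 and 0.387% of all promoters, too few to compare, and the TATA box TATAAA in 79 of the 493, 63 of the 406 and 4063 of the 32851, with 7.32% among the 14296 promoters of genes tested. The MEF2 box and the TATA box share letters and can overlap. These shares are descriptions of sequence, and a match is neither a bound site nor a cause of a level.

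The 5 promoters printed here show such matches in genes that the text describes, and they were chosen after the matches were seen. Each is 250 bases long, 5′ to 3′ on the strand of the gene, and ends at the base before the start site, with the matched motif in capitals. *Fabp1* (chr6:71199629-71199878, plus strand), for the fatty acid carrier of hepatocytes, has a C/EBP element from -174 to -166.
Fabp1: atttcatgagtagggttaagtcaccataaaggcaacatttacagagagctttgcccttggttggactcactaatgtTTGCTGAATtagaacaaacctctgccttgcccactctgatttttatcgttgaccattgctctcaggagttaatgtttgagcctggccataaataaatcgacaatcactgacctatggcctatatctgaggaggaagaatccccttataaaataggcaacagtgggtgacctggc

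In muscle, *Ppp1r3a* (chr6:14755275-14755524, minus strand) has a MEF2 box from -100 to -91 and a MyoD E-box from -14 to -9, and *Ttn* (chr2:76982548-76982797, minus strand) has a MEF2 box from -166 to -157. *Acta1* (chr8:123894776-123895025, minus strand) has a CArG box from -73 to -64 and a MyoD E-box from -221 to -216. Its start site in the RefSeq table lies upstream of the gene span given above, and these positions count from that site. *Esrrg*, the receptor gene with the muscle-biased level given further on, has in this promoter (chr1:187608756-187609005, plus strand) a MEF2 box from -22 to -13. TATA boxes are not in capitals, and the MEF2 boxes of *Ppp1r3a* and *Esrrg* overlap such letters.
Ppp1r3a: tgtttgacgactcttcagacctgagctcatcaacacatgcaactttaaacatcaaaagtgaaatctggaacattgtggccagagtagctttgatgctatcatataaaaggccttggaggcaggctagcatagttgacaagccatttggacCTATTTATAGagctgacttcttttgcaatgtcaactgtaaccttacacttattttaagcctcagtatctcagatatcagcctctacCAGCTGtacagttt
Ttn: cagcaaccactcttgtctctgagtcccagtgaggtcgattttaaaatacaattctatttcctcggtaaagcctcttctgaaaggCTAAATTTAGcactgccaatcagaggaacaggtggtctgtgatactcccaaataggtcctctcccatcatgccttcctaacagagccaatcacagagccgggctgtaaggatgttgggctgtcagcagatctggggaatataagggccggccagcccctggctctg
Acta1: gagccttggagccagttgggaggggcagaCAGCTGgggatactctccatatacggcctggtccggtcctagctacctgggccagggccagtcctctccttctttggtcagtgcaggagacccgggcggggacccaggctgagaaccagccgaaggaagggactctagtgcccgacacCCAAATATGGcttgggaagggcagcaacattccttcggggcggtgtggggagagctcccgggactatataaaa
Esrrg: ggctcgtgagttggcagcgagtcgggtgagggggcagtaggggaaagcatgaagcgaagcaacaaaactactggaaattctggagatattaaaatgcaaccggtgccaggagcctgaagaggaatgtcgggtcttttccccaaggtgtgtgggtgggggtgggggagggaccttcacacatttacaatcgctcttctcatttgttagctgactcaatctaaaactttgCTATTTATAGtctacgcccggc

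Enzymes and transporters with a liver and a muscle form were compared as pairs, by the share of the liver form in the summed CPM per kb of the pair. In all 33 pairs this share was higher in each liver than in each muscle, and in 30 pairs both forms were called, the liver form higher in liver and the muscle form higher in muscle. Of all genes tested 42.1% were called higher in liver and 41.8% higher in muscle. The pairs were listed as known tissue forms and with earlier results of these data known, so their direction is no independent support. The median share of the liver form was 99.0% in liver and 0.892% in muscle, 23 pairs were above 90% in liver and under 10% in muscle, and the main form, that above 50% on average, switched between the tissues in 29 pairs. The 10 pairs outside those 23 fell short of a near-complete exchange in liver, in muscle or in both.

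Glucose entry and glycolysis exchanged almost every form. The transporter *Slc2a2* (GLUT2) made up 99.8% ± 0.1497 of its pair with the insulin-responsive *Slc2a4* (GLUT4) in liver and 0 in muscle. The liver pyruvate kinase *Pklr* against *Pkm* had 96.5% ± 0.699 and 0. Phosphofructokinase was the partial case: *Pfkl* made up 54.8, 53.8, 50.7 and 54.0% in the livers, where the muscle form *Pfkm* thus held nearly as much, and 0.118, 0.113, 0.129 and 0.118% in the muscles. Phosphoglycerate mutase (*Pgam1* and *Pgam2*) and enolase (*Eno1* and *Eno3*) had 98.6% ± 0.246 and 97.9% ± 0.378 of the liver form in liver and 0.218% ± 0.0538 and 0.591% ± 0.0263 in muscle. Lactate transport differed less sharply, since *Slc16a1* (MCT1) still made up 19.2, 20.4, 16.4 and 18.7% of its pair with *Slc16a3* (MCT4) in the muscles.

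Glycogen enzymes showed the same exchange. Glycogen phosphorylase (*Pygl* and *Pygm*) had 99.6% ± 0.0920 of the liver form in liver and 0.0318% ± 0.00424 in muscle, and glycogen synthase (*Gys2* and *Gys1*) had 99.0% ± 0.141 and 0.135% ± 0.0318. The subunit that brings protein phosphatase 1 to glycogen changed from *Ppp1r3b*, 100% ± 0.0221 in liver, to *Ppp1r3a*, which left the liver form 0.269% ± 0.0182 in muscle. The α subunit of phosphorylase kinase was less complete in liver, where *Phka2* made up 79.2, 75.9, 78.6 and 76.3% and *Phka1* the rest. In muscle *Phka2* fell to 0.688% ± 0.0611.

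In mitochondria the exchange reached into the respiratory chain. Subunits 6a, 7a and 8 of cytochrome c oxidase have a ubiquitous form, called the liver form, and a form of heart and skeletal muscle. *Cox6a1* made up 100% ± 0.0675 of its pair with *Cox6a2* in liver and 3.25% ± 0.445 in muscle, and *Cox8a* made up 100% ± 0.0377 and 4.52% ± 0.448 of its pair with *Cox8b*. *Cox7a2* kept 26.2, 24.7, 24.95 and 20.0% in the muscles against 97.7, 99.4, 97.8 and 98.6% in the livers, the largest share that an oxidase subunit of the liver form kept in muscle. The adenine nucleotide translocator, which trades ATP for ADP across the inner membrane, had 99.1% ± 0.117 *Slc25a5* in liver and 1.27% ± 0.0945 in muscle, where *Slc25a4* stood at 1212 ± 65.9 CPM per kb. Succinyl-CoA ligase in liver was a mixture: *Suclg2*, the GTP-forming subunit, made up 60.5, 61.6, 60.3 and 57.8% in livers and 11.03, 10.9, 10.6 and 11.5% in muscles beside the ATP-forming *Sucla2*. NADP-dependent isocitrate dehydrogenase shifted from the cytosolic *Idh1*, 86.7% ± 1.15 in liver, to the mitochondrial *Idh2*, which left *Idh1* 5.79% ± 0.534 in muscle. The phosphatases that activate pyruvate dehydrogenase went from 95.7% ± 1.13 *Pdp2* in liver to 4.77% ± 0.471 in muscle, where the calcium-sensitive *Pdp1* stood at 88.8, 88.2, 94.1 and 86.4 CPM against 1.69, 1.14, 1.45 and 1.01 CPM in livers.

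Some pairs did not switch. *Cpt1a*, the liver gate for fatty acids into mitochondria, held the larger share in both tissues, with 99.9, 99.9, 99.9 and 100% in livers and 66.7, 84.6, 81.8 and 66.4% in muscles. The muscle form *Cpt1b* had only 0.415 ± 0.191 CPM per kb in muscle, and 81.4% of its exons are also covered by another gene, where reads may have stayed uncounted, so its level is unsure. The muscle form held the larger share in both tissues for acetyl-CoA carboxylase (*Acacb*, with *Acaca* at 30.1% ± 1.56 in liver) and the α subunit of AMP kinase (*Prkaa2*, with *Prkaa1* at 23.2% ± 1.65 in liver). For adenylosuccinate synthase the forms were about equal in liver, with *Adss* at 48.9, 50.7, 48.2 and 51.2%, and *Adssl1* prevailed in muscle. In 3 pairs the liver form was not higher in liver: the calcium pump *Atp2a2* and *Prkaa1* were called higher in muscle with log2 fold changes of 1.78 ± 0.09 and 0.50 ± 0.07, and *Prkag1*, a γ subunit of AMP kinase, was not called (0.23 ± 0.11, adjusted p = 0.0718) except, as higher in muscle, without liver replicate 1 (0.28) and after upper-quartile (0.44) or total-count (0.37) scaling. In these pairs the share moved because the muscle forms *Atp2a1*, *Prkaa2* and *Prkag3* rose further. Fat carriers (*Fabp1* and *Fabp3*), methionine adenosyltransferase (*Mat1a* and *Mat2a*) and AMP deaminase (*Ampd2* and *Ampd1*) each had above 98% of the liver form in every liver except for 97.8% in livers 2 and 4 for *Mat1a*, and under 2% in every muscle.

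**Figure D2:**
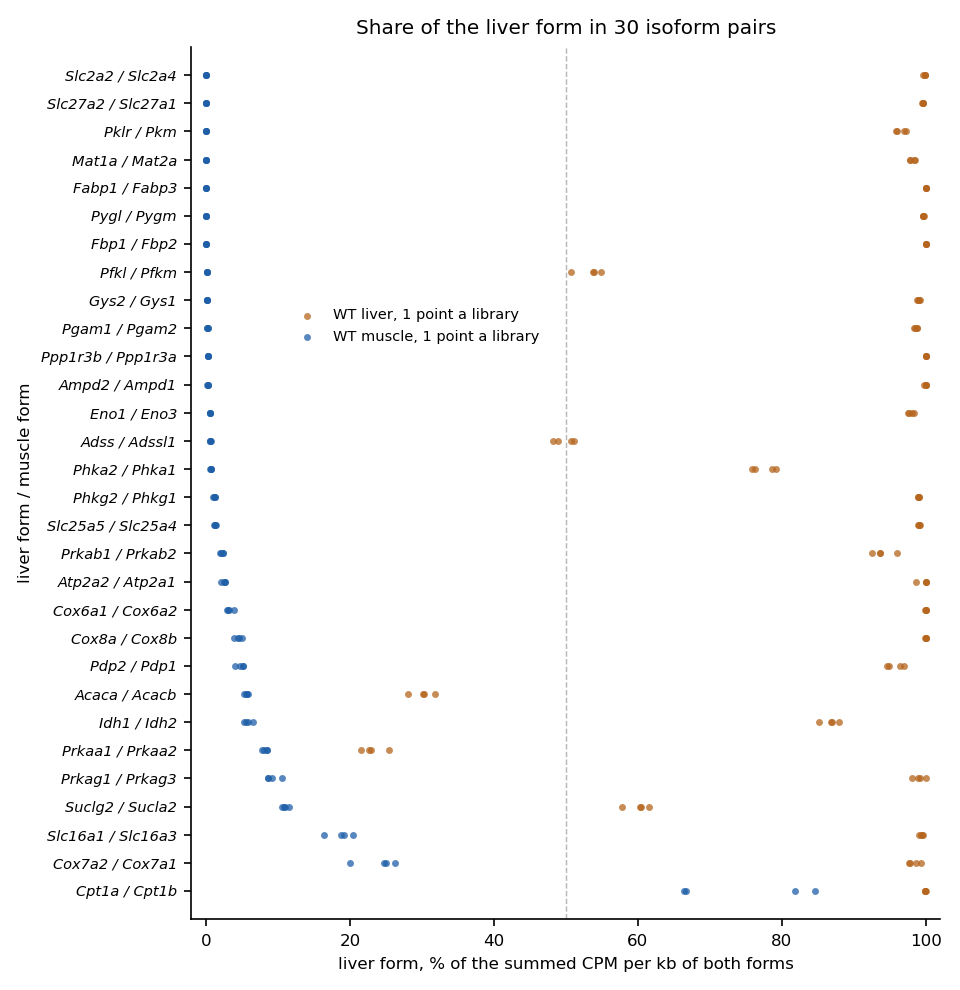
Share of the liver form in the summed CPM per kb of 30 of the 33 pairs, in percent, with 1 point for each of the 4 livers and 4 muscles and a line at 50%. In every pair shown the livers lie above the muscles, and for *Cpt1a*, *Acaca* and *Prkaa1* all 8 points lie on the same side of the line, while for *Adss* the livers lie around it.

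Genes of the respiratory chain and ATP synthase on nuclear chromosomes were mostly higher in muscle. Of 78 such genes 58 (74.4%) were called higher in muscle and 10 (12.8%) higher in liver, beside 41.8 and 42.1% of all genes tested, and their median log2 fold change was 0.69. Leaving out the genes that belong to the isoform pairs gave 55 and 7 of 72 with the same median. By complex the counts in muscle and liver were 27 and 2 of 36 for complex I (median 0.73), 3 and 1 of 4 for complex II (0.35), 7 and 2 of 9 for complex III (0.58), 9 and 3 of 14 for complex IV (0.56) and 12 and 2 of 15 for ATP synthase (0.77). *Ndufs1*, the largest iron-sulfur subunit of complex I, stood at 153, 140.0, 138 and 132 CPM in livers and 411, 455, 418 and 434 CPM in muscles (log2 fold change 1.61 ± 0.07, adjusted p = 2.43e-11). The groups did not overlap, and this rise is above that of most genes of the chain. Among the exceptions, *Ndufa1* was higher in liver, with 55.7, 50.3, 45.8 and 49.2 against 39.0, 38.1, 37.3 and 36.1 CPM (-0.42 ± 0.07, adjusted p = 5.96e-05), though not called after upper-quartile scaling. Scaling by the upper quartile shifts the median of all genes by 0.22 towards muscle and gives 63 and 4 of 78, with the liver calls the more dependent on scaling.

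The mitochondrial genome itself took 4.47% ± 0.483 of all counts in livers and 10.6% ± 0.359 in muscles. Each of its 13 protein genes was called higher in muscle, beside 41.8% of all genes tested, with a median log2 fold change of 1.35. Subunit 1 of cytochrome c oxidase, *mt-Co1*, stood at 18486, 18473, 21879 and 17471 CPM in livers and 35533, 38560.4, 38580.0 and 38779.9 CPM in muscles (0.99 ± 0.15, adjusted p = 3.15e-05), and *mt-Nd1* of complex I differed more (1.57 ± 0.13). The libraries of the tissues did not overlap for these genes. Several short genes of this genome had far lower levels per length than *mt-Co1*, for example *mt-Co2* with 82.2 ± 9.36 CPM per kb in liver against 12348 ± 1247, and the cause was not tested. Regulators of mitochondrial DNA and its expression did not lean to muscle. Of 12 genes 2 (16.7%) were called higher in muscle, beside 41.8% of all genes tested. Another 5 (41.7%) were called higher in liver, close to the 42.1% of all genes tested. Their counts were 3 and 3 after upper-quartile or total-count scaling. Their median was -0.28, which the scalings tried moved between -0.28 and -0.07. *Tfam*, which packages and transcribes the mitochondrial genome, stood at 45.6, 43.7, 45.5 and 44.5 CPM in livers and 44.7, 46.1, 42.7 and 40.8 CPM in muscles, overlapping groups with no call (-0.04 ± 0.06, adjusted p = 0.546). *Nrf1*, a regulator of nuclear genes for mitochondria, was slightly higher in muscle (0.30 ± 0.09, and not called at 0.22 without liver replicate 2), *Gabpa* (NRF-2) lower (-0.59 ± 0.06), and *Polg2*, a subunit of the mitochondrial DNA polymerase, lower still (-2.09 ± 0.15).

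The citric acid cycle and pyruvate dehydrogenase were higher in muscle. Of 17 cycle genes 14 (82.4%) were called higher in muscle and 2 (11.8%) higher in liver, beside 41.8 and 42.1% of all genes tested (median 1.02). *Idh3a*, the catalytic subunit of NAD-dependent isocitrate dehydrogenase, led with 32.3, 27.6, 36.4 and 30.0 CPM in livers and 607, 677, 633 and 648 CPM in muscles (4.34 ± 0.09, adjusted p = 1.53e-14). Oxoglutarate dehydrogenase (*Ogdh*) had a log2 fold change of 2.28 ± 0.07 and citrate synthase (*Cs*) of 2.16 ± 0.07. The 2 genes higher in liver were *Suclg2* (-1.93 ± 0.08) and, with a call that several scalings remove, *Sdhd* (-0.29 ± 0.08), a membrane anchor of succinate dehydrogenase. Steps of the cycle thus differed by different factors. Of 10 genes of pyruvate dehydrogenase and its regulators 8 (80.0%) were called higher in muscle and 1 higher in liver (median 1.70). *Pdha1*, the catalytic subunit, had a log2 fold change of 2.36 ± 0.08. *Pdk4*, the kinase that shuts the complex when fat is burned, stood at 15.99, 13.6, 11.6 and 12.3 CPM in livers and 454, 660.1, 236 and 574 CPM in muscles (5.16 ± 0.28, adjusted p = 3.39e-10), so that both its kinase and its phosphatase *Pdp1* were far higher in muscle. The muscles varied widely in *Pdk4*, with replicate 3 lowest, yet each lay above every liver. *Pdk1*, the kinase of low oxygen, was not called (-0.21 ± 0.10, adjusted p = 0.0590), but it was called higher in liver without liver replicate 3 (-0.31).

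Fat oxidation ran the other way in its gene levels. Of 18 genes of mitochondrial fatty acid oxidation 13 (72.2%) were called higher in liver and 3 (16.7%) higher in muscle, beside 42.1 and 41.8% of all genes tested, with a median of -0.76. Upper-quartile scaling gave 11 and 5, and the median stayed negative under every scaling tried. *Cpt1a* stood at 328, 348, 298 and 279 CPM in livers and 8.31, 11.6, 7.89 and 9.24 CPM in muscles (-5.08 ± 0.12, adjusted p = 4.18e-14). The acyl-CoA dehydrogenases split by chain length: *Acadl* for long chains was higher in muscle (0.55 ± 0.08), *Acadm* for medium chains was not called (0.11 ± 0.10, adjusted p = 0.316), with overlapping groups, but called higher in muscle after upper-quartile scaling (0.32), and *Acadvl* for very long chains was higher in liver (-0.71 ± 0.07). The trifunctional protein split by subunit, with *Hadhb* higher in muscle (1.16 ± 0.07) and *Hadha* not called at a fold under 1.2 (0.17 ± 0.07, adjusted p = 0.0395), but called higher in muscle after upper-quartile (0.38) or total-count (0.30) scaling. Another gene covers 42.9% of the exons of *Acadvl*. All 7 genes of peroxisomal oxidation were called higher in liver (median -3.35), among them the bifunctional *Ehhadh* (-5.38 ± 0.12).

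Ketone bodies, urea and glucose separated the tissues by direction of use. All 4 genes of ketone body synthesis were called higher in liver, as were 42.1% of all genes tested (median -2.66). *Oxct1*, the enzyme that commits ketone bodies to oxidation and of which hepatocytes are known to hold little, stood at 5.82, 3.90, 5.02 and 5.01 CPM in livers and 444, 489, 438 and 493 CPM in muscles (6.55 ± 0.11, adjusted p = 1.65e-15). Genes for making ketone bodies were thus higher in liver and the gene for using them higher in muscle, where each library lay above every liver. *Bdh1*, which turns the ketone bodies into each other and is needed on both sides, was higher in liver (-1.94 ± 0.10). All 8 genes of the urea cycle were called higher in liver, beside the same 42.1% of all genes, and 4 of them were restricted: *Otc* and *Cps1* had 1 and 2 counts over all muscles, and *Nags*, which makes the activator of *Cps1*, had 0 and was at least 708-fold higher in liver. The median of this list with *Nags* at its bound was -10.46. All 5 genes of gluconeogenesis were called higher in liver, beside that share (median -7.30). *G6pc*, the phosphatase that lets glucose leave the cell, stood at 678, 770.0, 530.2 and 1033 CPM in livers and at 0 in all muscles, at least 6520.0-fold lower. *Pck1* (-7.30 ± 0.36) and *Pcx* (-2.53 ± 0.08), which feed the pathway from pyruvate and oxaloacetate, kept some level in muscle, *Pcx* with 105 CPM.

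Creatine and branched-chain amino acids pass between the organs. *Gamt*, the last step of creatine synthesis, was higher in liver (211, 176, 167 and 163 against 8.95, 7.86, 9.01 and 8.69 CPM, -4.38 ± 0.10), whereas *Gatm*, the step before it, was not called (0.01 ± 0.11, adjusted p = 0.914). The creatine transporter *Slc6a8* (4.61 ± 0.08) and the mitochondrial creatine kinase *Ckmt2*, at 1103, 1245, 1096 and 1208 CPM in muscles and 0.195, 0, 0 and 0 CPM in livers, were higher in muscle. Of 5 tested genes for branched-chain amino acids 2 (40.0%) were called higher in muscle and 3 (60.0%) higher in liver. Of all genes tested these shares were 41.8 and 42.1%. The transaminase *Bcat2* (1.52 ± 0.07) and *Bckdk*, the kinase that switches off the next step (3.49 ± 0.08), were higher in muscle. The 3 higher in liver were subunits of the dehydrogenase. The uncoupling protein *Ucp3* had 0 counts in all livers and 58.9, 78.5, 37.0 and 58.3 CPM in muscles (at least 489.8-fold higher), and *Ucp2* was higher in liver (-1.21 ± 0.08).

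**Figure D3:**
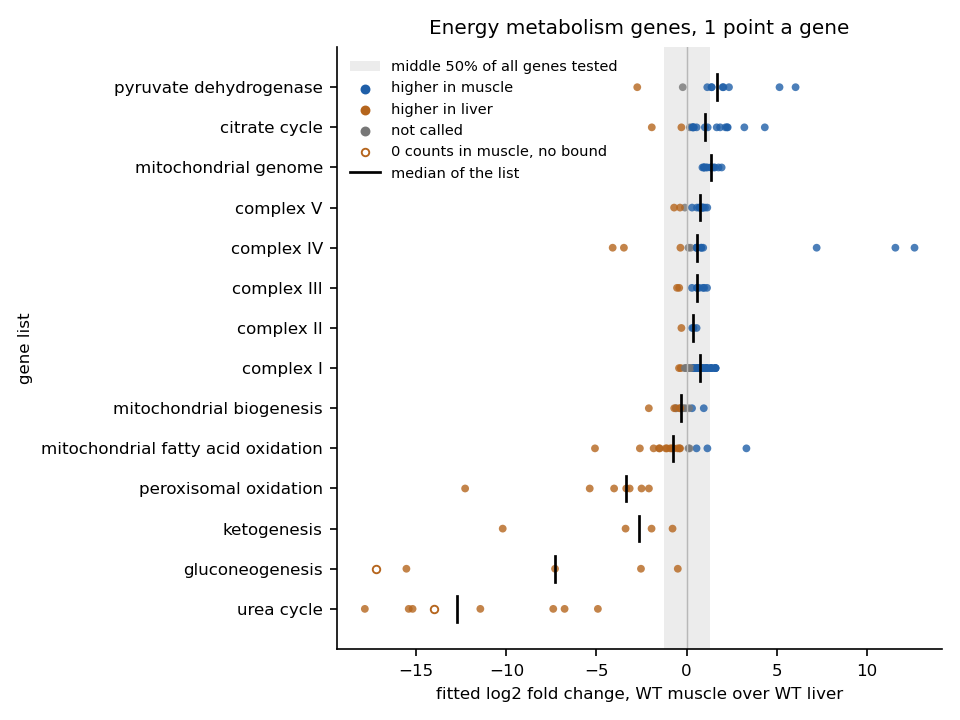
Fitted log2 fold change, muscle minus liver, of each gene of the metabolic lists, with 1 point a gene, colored by the tissue in which it was called higher, a line at the median of each list and a band for the middle 50% of all genes tested. Pyruvate dehydrogenase, the citric acid cycle and the mitochondrial genome lie to the muscle side and fatty acid oxidation, ketogenesis, gluconeogenesis and the urea cycle to the liver side; open points have 0 counts in muscle, so that their fitted value is no bound.

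Of 49 nuclear receptor genes 40 were tested, 17 (42.5%) were called higher in muscle, 18 (45.0%) higher in liver and 5 were not called, with a median log2 fold change of 0.03. Shares this close to the 41.8 and 42.1% of all genes are no property of the family, and the receptors are of interest one by one. Genes left untested for low counts were *Esr2*, *Hnf4g*, *Nr0b1*, *Nr2e1*, *Nr2e3*, *Nr5a1*, *Pgr*, *Rorb* and *Vdr*. Scaling by the upper quartile moved the median to 0.25 and the counts to 20 in muscle and 17 in liver, close to the shift of 0.22 in all genes.

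Of the 40 tested receptors 6 were restricted to liver and 0 to muscle, beside 536 and 443 of all 14886 genes tested. At so low a share over all genes, the 0 in muscle is no property of the family. *Hnf4a* (ENSMUSG00000017950, chr2:163506808-163572910), the receptor that maintains the hepatocyte program, stood at 677, 629, 621 and 564 CPM in livers and had 0 counts in all muscles, at least 5393-fold lower. The bile acid receptor *Nr1h4* (FXR) stood at 111, 89.1, 82.5 and 91.7 CPM in livers and 0.252, 0.161, 0.0387 and 0.156 CPM in muscles (-9.21 ± 0.19). Its target and corepressor *Nr0b2* (SHP) had 2 counts over all muscles, a ratio of 1807 (95% counting interval 500.2 to 14921). The xenobiotic receptors *Nr1i2* (PXR), with a ratio of 2779 (769 to 22949), and *Nr1i3* (CAR), with 657 (225 to 3188) and another gene over 74.9% of its exons, and *Nr5a2* (LRH-1, -7.18 ± 0.13) complete the 6. Receptors for bile acids and foreign compounds were thus at or near 0 in muscle.

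Other liver-biased receptors were shared by both tissues. *Ppara*, which induces fat oxidation in fasting, stood at 101.8, 109, 79.4 and 73.7 CPM in livers and 9.03, 11.05, 10.9 and 9.16 CPM in muscles (-3.18 ± 0.13, adjusted p = 1.70e-11), and no liver overlapped a muscle. The oxysterol receptor *Nr1h3* (LXRα) was close to it in size (-3.17 ± 0.08), and its ubiquitous relative *Nr1h2* (LXRβ) barely differed (-0.27 ± 0.07), with a call that several scalings remove. *Pparg*, the receptor of fat cells, was low in both tissues, at 11.2, 14.5, 6.89 and 9.46 CPM in livers and 3.81, 3.71, 3.64 and 3.12 CPM in muscles. *Ppard*, often ascribed to muscle, ranged from 14.8 to 32.2 CPM in livers and from 27.0 to 29.6 CPM in muscles and was not called (0.31 ± 0.19, adjusted p = 0.142), though it was called higher in muscle without liver replicate 4 (0.51) and after upper-quartile (0.53) or total-count (0.45) scaling, with the replicate number as a block (0.37) and with no filter on low counts (0.31). Per length *Ppara* remained the highest of the 3 in liver, with 23.7 ± 4.46 CPM per kb, and *Ppard* in muscle, with 3.73 ± 0.149. RXR, the partner of these receptors, differed in its mix of paralogs: *Rxra* fell from 91.5 ± 5.64 to 32.2 ± 1.85 CPM per kb (-1.51 ± 0.07), *Rxrg* rose from 2.38 ± 0.394 to 29.6 ± 1.18 (3.63 ± 0.10) and *Rxrb* was not called (-0.05 ± 0.07, adjusted p = 0.511). Muscle therefore held *Rxra* and *Rxrg* at nearly equal levels per length, where liver held mostly *Rxra*. Thyroid hormone receptors switched the more abundant paralog, with *Thra* higher in muscle (2.08 ± 0.08) and *Thrb* higher in liver (-0.78 ± 0.08). In liver *Thrb* stood above *Thra* with 5.90 ± 0.421 against 3.84 ± 0.463 CPM per kb, and in muscle *Thra* was the higher with 16.3 ± 0.793 against 3.45 ± 0.273.

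All 3 estrogen-related receptors were called higher in muscle, beside 41.8% of all genes tested. *Esrra* (ENSMUSG00000024955, chr19:6910977-6921813), which encodes ERRα, a driver of mitochondrial genes, stood at 28.2, 26.9, 27.9 and 29.0 CPM in livers and 92.3, 84.4, 68.3 and 79.6 CPM in muscles, a 2.90-fold difference (1.53 ± 0.08, adjusted p = 4.85e-10). The livers lay close together, and the lowest muscle, replicate 3, was well above the highest liver. *Esrrg* (ERRγ), tied to oxidative tissues, stood at 4.35, 1.10, 2.76 and 1.28 CPM in livers and 39.4, 37.7, 47.1 and 48.8 CPM in muscles (4.14 ± 0.27, adjusted p = 3.28e-09). *Esrrb* (ERRβ) stood at 1.14, 0.986, 1.23 and 0.836 CPM in livers and 11.2, 11.7, 8.09 and 12.7 CPM in muscles (3.37 ± 0.18). The tissues did not overlap for any of these genes, and the share of all genes without overlap is not given here. Per length *Esrra* was the most abundant of the family in both tissues, with 6.39 ± 0.198 CPM per kb in liver and 18.5 ± 2.29 in muscle, *Esrrg* followed with 0.382 ± 0.244 and 6.97 ± 0.887, and *Esrrb* was lowest with 0.173 ± 0.0288 and 1.81 ± 0.331. Levels of messenger RNA do not give those of the proteins, which are not analysed here.

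Other receptors higher in muscle included the following. *Nr4a1*, induced by contraction and stress, stood at 1.56, 9.86, 5.15 and 5.98 CPM in livers and 144, 227, 121 and 90.4 CPM in muscles (4.72 ± 0.39), and *Nr4a3* had 3.80 ± 0.48. Both varied among the muscles, and replicate 2 was highest in *Nr4a1*, *Nr4a3* and *Nr4a2*. The clock repressors *Nr1d1* (REV-ERBα, 2.13 ± 0.23) and *Nr1d2* (1.21 ± 0.16) and the clock activator *Rora* (0.61 ± 0.10) were all higher in muscle, and *Nr1d1* ranged from 22.5 to 68.6 CPM among the livers. The study's methods give a span of hours for tissue collection, and the time of each mouse is not used here. The glucocorticoid receptor *Nr3c1* did not reach a fold of 1.2 (0.19 ± 0.06, adjusted p = 0.00682), nor did the mineralocorticoid receptor *Nr3c2* (0.09 ± 0.09, adjusted p = 0.345). After upper-quartile scaling both were called higher in muscle (0.41 and 0.31), *Nr3c1* also after total-count scaling (0.33). *Nr2f1* was not called at levels under 2 CPM (-0.03 ± 0.34, adjusted p = 0.945).

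**Figure D4:**
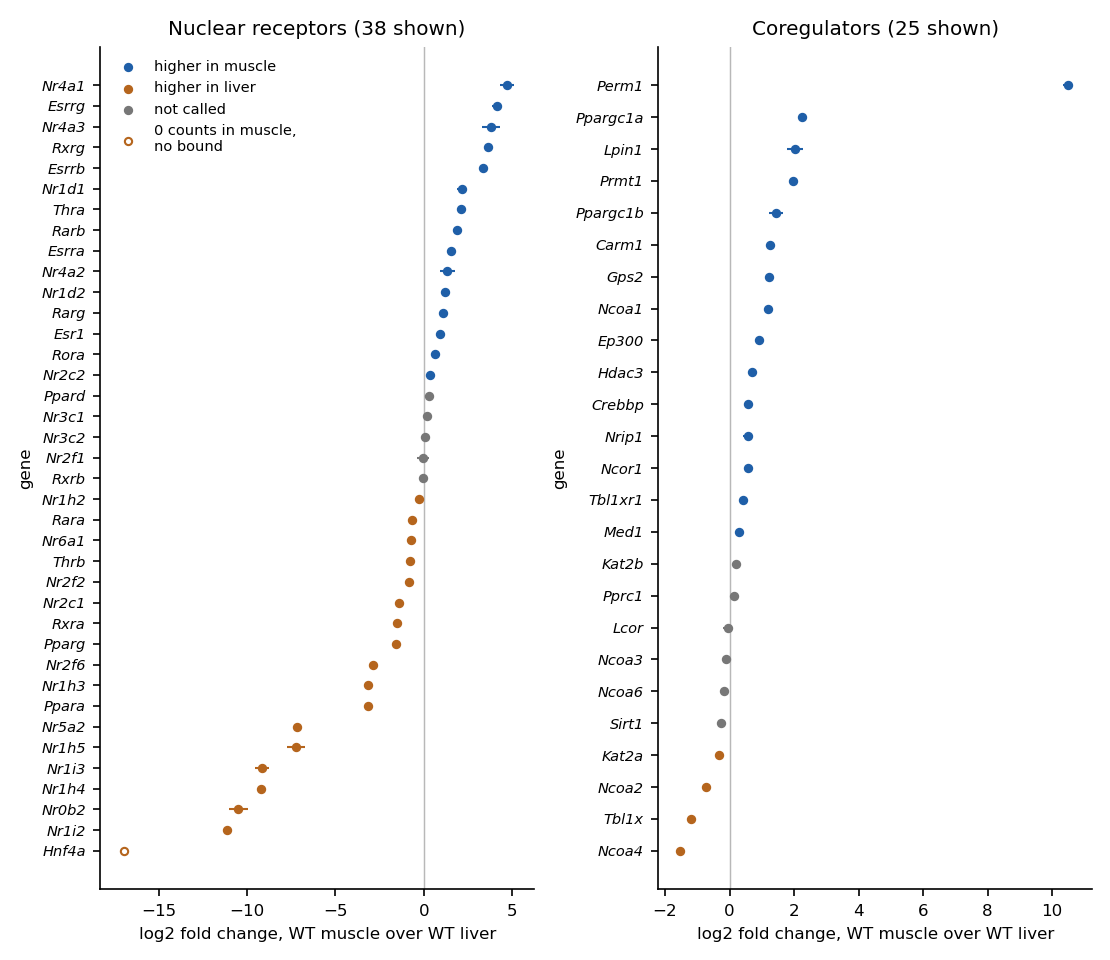
Log2 fold change, muscle minus liver, with its standard error, of 38 of the 40 tested nuclear receptor genes and 25 of the 26 coregulator genes, ordered by value and colored by the tissue in which each was called higher. *Hnf4a*, *Nr1i2* and *Nr0b2* lie farthest to the liver side, *Perm1* and *Nr4a1* farthest to the muscle side; the fitted value of *Hnf4a*, with 0 counts in muscle, is no bound.

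Coregulators leaned to muscle. Of 26 genes 16 (61.5%) were called higher in muscle and 4 (15.4%) higher in liver, beside 41.8 and 42.1% of all genes, with a median of 0.57, and the count was 18 and 3 with upper-quartile scaling. *Perm1*, a muscle protein induced by PGC-1 and ERR that raises oxidative genes, was restricted to muscle, with 0.260, 0.158, 0.0851 and 0.176 CPM in livers and 251, 267, 242 and 276 CPM in muscles (10.49 ± 0.14, adjusted p = 2.47e-16). *Ppargc1a* (ENSMUSG00000029167, chr5:51454250-51567726), which encodes PGC-1α, the coactivator of ERRα, stood at 9.78, 11.04, 9.23 and 8.18 CPM in livers and 38.7, 55.3, 47.3 and 42.4 CPM in muscles, 4.79-fold higher in muscle (2.26 ± 0.12, adjusted p = 2.51e-10). Each muscle was above every liver for both genes. *Ppargc1b* (PGC-1β) rose less (1.43 ± 0.21) and *Pprc1*, the family member tied to growth, was not called (0.13 ± 0.10, adjusted p = 0.238) except, as higher in muscle, after upper-quartile (0.34) or total-count (0.26) scaling. The PGC-1 family thus differed by member, with *Ppargc1a* farthest apart between the tissues.

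*Lpin1*, a phosphatidate phosphatase that also coactivates PPARα, was higher in muscle (2.03 ± 0.25), with livers spread from 56.7 to 161 CPM. Methyltransferases that act as coactivators, *Prmt1* (1.98 ± 0.07) and *Carm1* (1.24 ± 0.06), and the corepressors *Ncor1* (0.56 ± 0.07) and *Nrip1* (0.58 ± 0.15) were also higher in muscle. The p160 coactivators split, with *Ncoa1* higher in muscle (1.195 ± 0.08), *Ncoa2* higher in liver (-0.73 ± 0.07) and *Ncoa3* not called (-0.11 ± 0.07). *Ncoa4*, better known for the turnover of ferritin, was the most liver-biased of the list (-1.53 ± 0.06). *Sirt1*, the deacetylase of PGC-1α, fell just under the fold of 1.2 (-0.26 ± 0.11, adjusted p = 0.0437) and was called higher in liver without liver replicate 1 (-0.34), liver replicate 3 (-0.28) or muscle replicate 3 (-0.38) and with the replicate number as a block (-0.26). *Ncoa6* (-0.16 ± 0.11), called higher in liver only without muscle replicate 3 (-0.31), and *Lcor* (-0.06 ± 0.16) were not called either. Other genes were listed for the stability of ERRα protein, and the list does not cover all that the study describes. They were the kinases *Gsk3a* (0.65 ± 0.06) and *Gsk3b* (1.297 ± 0.07) and *Fbxw7*, the substrate receptor of a ubiquitin ligase, with 11.4, 13.96, 10.3 and 12.3 CPM in livers and 36.8, 40.9, 34.0 and 39.7 CPM in muscles (1.66 ± 0.10, adjusted p = 7.73e-10). All 3 were called higher in muscle, as were 41.8% of all genes tested. Counts cover the whole gene, so transcript forms of *Fbxw7* were not told apart, and the study describes its main form as alike in both tissues.

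Bulk tissue also holds cells other than hepatocytes and fibres, and markers of further cell types were summed in every library. On the liver side, markers of Kupffer cells summed to 146 to 159 CPM in livers and 1.05 to 1.77 CPM in muscles, with *Clec4f* and *Marco* at 0 in all muscles. Markers of sinusoidal endothelium summed to 105 to 123 and 13.8 to 17.4 CPM, most of the latter from *Stab2*, of stellate cells to 73.6 to 92.4 and 9.20 to 10.9, of macrophages to 82.3 to 91.8 and 24.0 to 33.8 and of erythroid cells to 139 to 181 and 1.94 to 2.84, nearly all from *Alas2*, so that the sum rests on 1 gene. Cholangiocyte markers, led by *Sox9*, summed to 9.07 to 12.6 and 2.82 to 4.93 CPM, with *Epcam* at 0 in muscle. Each of these sums was higher in every liver than in every muscle. Leukocyte markers, mostly *Ptprc*, were low in both tissues, at 9.68 to 11.5 and 4.10 to 6.41 CPM.

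On the muscle side, fibroblast markers, led by *Dcn*, summed to 140.2 to 155 CPM in livers and 922 to 1221 CPM in muscles, general endothelial markers to 104 to 124 and 227 to 262 and smooth muscle markers to 5.95 to 11.7 and 96.5 to 125. Adipocyte markers, led in muscle by *Cfd*, summed to 1.28 to 3.63 CPM in livers and 68.3 to 142 CPM in muscles, with the muscles unlike among themselves. Satellite cell markers *Pax7* and *Myf5* had 0 counts in livers and 4.64 to 5.61 CPM in muscles. The heart markers *Nppa* and *Myh6* were at 0 and near 3.02 CPM in muscle, and *Ucp1* of brown fat had 6 counts over all muscles and 0 in livers. Blood vessels, connective tissue and fat were thus among the sources of the muscle libraries beside fibres, and resident macrophages and sinusoids among those of the liver libraries. What part these cells have in the differences of receptors such as *Pparg* or *Nr2f2* was not tested.

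**Figure D5:**
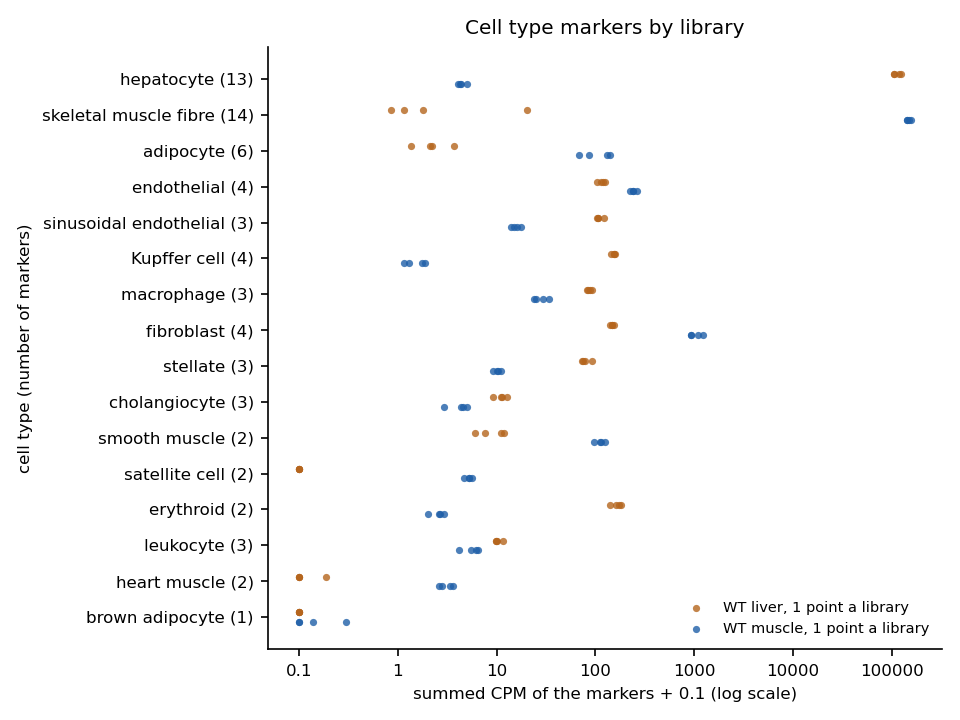
Summed CPM of the markers of each cell type described, with 0.1 added, on a log axis, in each of the 4 livers and 4 muscles. Markers of Kupffer, sinusoidal, stellate and erythroid cells lie higher in the livers, and those of fibroblasts, adipocytes, smooth muscle and satellite cells higher in the muscles.

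ERRα3SA livers and muscles, fitted apart from WT, give the same contrast in other mice. In 14470 genes tested 10274 (71%) were called, and 11572 of 15032 (77%) without ERRα3SA muscle column 1, in which the mitochondrial genome took 19.3% of counts against 9.85, 9.47 and 9.15% in the other ERRα3SA muscles. Of 12017 genes called in WT and tested in both, 11860 (98.7%) had the same direction in ERRα3SA mice, 9978 (83.0%) were called in that direction and 5 were called in the opposite one. Without that library 12017 of 12316 (97.6%) had the same direction, 10720 (87.0%) were called in it and 25 in the opposite one. Most differences thus had the same direction in both genotypes. *Esrra* had a log2 fold change of 2.02 there beside 1.53 in WT, *Esrrg* 3.75 beside 4.14, *Ppargc1a* 2.37 beside 2.26, *Perm1* 11.46 beside 10.49 and *Ppara* -3.03 beside -3.18. A test by edgeR of whether the contrast differs between genotypes called 0 of 15688 genes (0%), with 881 at an unadjusted p under 0.05 and a smallest adjusted p of 0.107. Without ERRα3SA muscle column 1, an alternative chosen after seeing the data, it called 369 of 16019 (2.3%), so that library decides this count.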

How the data were processed

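The 8 WT libraries of liver and muscle, prepared with a NEBNext Ultra kit and sequenced from both ends, were analysed from raw gene counts. Alignment to mm10 (GRCm38) and counting, both by STAR, were done by the authors and are taken over as they stand. Their strand setting is not stated. RNA was extracted with different RNeasy kits from liver and muscle. Depth was 23426588 to 33412022 counts per library. Tests used the quasi-likelihood method of edgeR 4.0.16 in R 4.3.3, with TMM factors and filterByExpr (minimum count 10, minimum total count 15), on WT libraries alone, and Benjamini-Hochberg adjustment over all genes tested. Genes were called at an adjusted p under 0.05 and a fold of at least 1.2. Standard errors are the log2 fold change divided by the root of F and are approximate. The steps were tested on simulated data. DESeq2 1.42.0 was the alternative test, and scaling, filter, libraries in the fit, replicate block and each library left out were varied. Exon lengths came from GENCODE vM21 gene models, found for 99.9% of 54532 identifiers. Replicates differed by more than counting error, and none were merged.

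Genes named are members of lists of nuclear receptors, coregulators, tissue factors, metabolic pathways, isoform pairs and cell type markers, the 10 nuclear protein-coding genes with the highest mean CPM per kb and the 10 restricted genes with the highest mean CPM in each tissue, predicted genes left out; any other gene is said to be chosen after its values were seen. Members and lists were chosen with earlier results of these data known. A few listed genes are left out of text and plots and are not reported here, though they count in list totals. Insulin-treated and ERRα-null livers, ChIP-seq, proteomics and metabolomics were not analysed here. Tables and plots were made with Python 3.11.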

Additional observations from a re-analysis of the deposited data

Results flagged for a closer look

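In each group of 4 libraries the highest or lowest value was compared with its nearest neighbour by Dixon's ratio, which singles out about 1 in 20 groups by chance. Of 374 groups of values for the genes named, the marker sums and the library totals, 15 had a value far from the rest. That is no larger a share than the ratio singles out by chance, but the groups are not independent. The fibre marker sum contains *Acta1* and *Myh1*, and several flags fell in the same library. The total share therefore says nothing about a single library. No explanation was weighed for any of them.

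Liver replicate 1 stood apart in muscle-fibre genes. Its summed fibre markers were at 20.4 CPM against 0.749, 1.70 and 1.06 CPM in the other livers, *Acta1* was at 5.39 CPM against 0, 0 and 0.0440, and *Myh1* at 3.96 CPM against 0, 0 and 0.0880. These values are small beside muscle, but *Acta1* and *Myh1* fell outside the muscle-restricted list because of them.

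Muscle replicate 3 was far from the other muscles in 7 genes. It was high in *Ttn* (14043 CPM against 10293 to 10689), *Acacb* (417 CPM), *Mef2d* (239 CPM), *Fbp2* (48.5 CPM) and *Ncoa6* (30.5 CPM) and low in *Atp2a2* (792 CPM) and *Sox9* (2.40 CPM). Muscle replicate 1 was low in *Casq1* (2549 CPM), *Pdp2* (4.78 CPM) and *mt-Co1* (35533 CPM), and muscle replicate 2 was high in *Nr4a2* (6.05 CPM against 2.09, 2.01 and 1.40). Except for *Nr4a2*, whose lowest muscle lay within the range of the livers, and *Ncoa6*, which was not called, none of these genes overlapped between tissues.

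In ERRα3SA muscle column 1 the mitochondrial genome took 19.3% of counts against 9.85, 9.47 and 9.15%. Leaving this library out changed the test for a difference between genotypes, as given with that test.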

How the results depend on the processing

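The count of genes called lay between 12265, with all 16 libraries in the fit, and 12705, without liver replicate 3, under every alternative except for no filter on low counts, which tests more genes and called 15139. Without 1 library the counts ranged from 12563 to 12705 genes called, from 538 to 552 liver-restricted and from 445 to 462 muscle-restricted genes. A floor of 0.5 CPM in place of 1 gave 444 and 325 restricted genes, and the other settings gave 515 to 540 and 437 to 475. Isoform pairs with both forms called numbered 29 after upper-quartile or total-count scaling, where *Cox7a2* lost its call, and 30 otherwise. Nuclear receptors ranged from 17 to 19 in liver and from 16 to 20 in muscle, coregulators from 3 to 6 and from 15 to 18, and respiratory chain genes higher in muscle from 51 to 63. DESeq2 called 12431 genes.

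Upper-quartile scaling moved the median of all genes by 0.22 and total-count scaling by 0.14 towards muscle, so calls of small size follow the scaling. Of the counts in the paragraph above, none moved by more than 1.5 times. Without ERRα3SA muscle column 1 the test for a difference between genotypes moved from 0 to 369 genes. The genes called in ERRα3SA mice in the direction opposite to WT moved from 5 to 25. The cause was not tested for either count. Smaller lists and single genes with small fold changes also moved by more than 1.5 times.

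Log2 fold changes of the 221 tested genes named in the text or in its plots took 3533 values over 16 settings. Of these 3466 kept direction and call, 19 lost the call, 24 gained it and 24, in 8 genes, changed sign. None of these 8 genes was called by the reported fit. Upper-quartile scaling gave 0.16 for *Lcor*, 0.10 for *Ncoa3*, 0.0561 for *Ncoa6*, 0.19 for *Nr2f1*, 0.0074 for *Pdk1*, 0.17 for *Rxrb* and 0.18 for *Tfam*. Total-count scaling gave 0.0776 for *Lcor*, 0.0244 for *Ncoa3*, 0.11 for *Nr2f1*, 0.0873 for *Rxrb* and 0.10 for *Tfam*. For *Nr2f1* DESeq2 size factors gave 0.0016 and the DESeq2 test 8.74e-04. All 16 libraries in the fit gave -0.0212 for *Gatm*. Without 1 library *Gatm* ranged from -0.0726 to 0.0592, *Lcor* from -0.19 to 0.13 and *Nr2f1* from -0.32 to 0.11. For upper-quartile and total-count scaling the shift of the median exceeds the size of these values, and for the rest the cause was not tested. Without 1 library *Med1* (0.25, without liver replicate 2) and *Nr2c2* (0.25, without muscle replicate 3) also lost their call.

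The replicate number as a block gave 12423 genes. Deviations of a liver and a muscle of the same number from their group means correlated at 0.0011 to 0.0825, and 4 of 8 libraries matched their own number best, and the numbers were not treated as pairs.

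Limits are set by 4 libraries a tissue, by extraction kits that differ between tissues, by bulk tissue of several cell types and by reads of overlapping or paralogous genes. At this depth 0 counts allow up to 3 counts per library, so absence means a level below about 0.1 CPM. Levels of RNA do not give those of proteins.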

Other observations

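Without ERRα3SA muscle column 1, the test for a difference of the tissue contrast between genotypes called 6 of the genes named here or in the plots: *Cox8a*, *Dcn*, *Esrra*, *Ndufa1*, *Nr2f6* and *Rxrb*. Over all genes that test called 369 of 16019 (2.3%), so the 6 calls are not read as a property of the genes named. With all 16 libraries it called 0 of them.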
